A study of Mus musculus with 48 samples.

Results

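The genes for the proteins of the cytoplasmic ribosome were followed through bulk RNA-seq of mouse spleen, bone marrow and sorted tumour cells. Members were taken by symbol: protein-coding genes named Rpl or Rps with a number, Rplp0 to Rplp2, and Rpsa, without the Rps6k kinases. The rule gave 83 of the 55486 genes of the count table, 51 for the large subunit and 32 for the small subunit. Of these, 75 passed the filter on low counts and 8 did not.

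The ribosome joins a small subunit, which holds and decodes the messenger RNA, to a large subunit, which forms the peptide bond. Each subunit is an assembly of ribosomal RNA with many small, mostly basic proteins, made in near-equal numbers from genes scattered over the genome. Their messenger RNAs are among the most abundant of growing cells and carry a run of pyrimidines at the 5′ end, the terminal oligopyrimidine tract, through which mTOR signalling and the binding protein Larp1 control their translation. In lymphoid organs and tumours the level of these transcripts is commonly read as a measure of translational capacity.

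The series was made to ask what loss of QPCTL changes. QPCTL, a glutaminyl cyclase of the Golgi, turns glutamine at the start of proteins on their way to the cell surface into pyroglutamate. All 48 samples came from the QPCTL-KO C57/Bl6JR strain, as mice homozygous for the knockout or as wild-type littermates, in equal numbers. Whole spleen (8 samples) and whole bone marrow (8 samples) were taken without inoculation from mice aged 10 to 15 weeks, 4 of each genotype per organ. CD45-negative cells (12 samples, 6 of each genotype) were sorted from B16F10 melanomas on day 14, where knockout hosts carried knockout tumour cells and wild-type hosts wild-type ones, so host and tumour genotype cannot be told apart. The lymph node samples, 8 at baseline and 12 from tumour-bearing mice, are not analysed here, since their count columns carry no mark that separates these groups. The count columns used carry a tissue and a running number but no genotype, so each tissue group below mixes both genotypes. Nothing in the labels says outright that samples of a group came from separate mice, and p-values then measure only the spread between these samples. Spleen and bone marrow may also share animals.

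A pyrimidine run was found at an annotated start of some members that the results turn on, and not of others. RefSeq promoters on GRCm38.p6 were found for 63 of the 83 members, and a run of at least 8 C or T bases touching the 5 bases on either side of a start was present in 24 of them (38.1%), against 10.96% of all 27025 symbols with a promoter. Some members have several annotated starts, and a member was counted if any of them had a run. The windows of 30 bases below hold 15 bases before the start and 15 from it on, 5′ to 3′ on the coding strand, the strand searched, with the run in capitals. They show 5 members with a run and 3 without one, among the latter Rpl5, which differed strongly between tissues, and Rpl7l1, which was not called in any comparison. Rpl35a and Rps24 also have annotated starts without such a run, which are not printed.
Rps27 (small subunit, chr3:90213634-90213663, minus strand): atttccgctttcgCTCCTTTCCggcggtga
Rps24 (small subunit, chr14:24490663-24490692, plus strand): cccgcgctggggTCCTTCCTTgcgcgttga
Rps9 (small subunit, chr7:3704026-3704055, plus strand): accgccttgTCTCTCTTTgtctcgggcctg
Rps6 (small subunit, chr4:86857353-86857382, minus strand): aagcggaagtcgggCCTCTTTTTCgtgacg
Rpl35a (large subunit, chr16:33056467-33056496, plus strand): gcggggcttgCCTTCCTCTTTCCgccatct
Rpl5 (large subunit, chr5:107900513-107900542, plus strand): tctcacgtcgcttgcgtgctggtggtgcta
Rplp0 (stalk of the large subunit, chr5:115559452-115559481, plus strand): gtcttcgggtttcgaggaccgcctggttct
Rpl7l1 (paralogue of Rpl7, chr17:46782642-46782671, minus strand): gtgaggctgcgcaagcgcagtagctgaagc
A run is a match of letters at an annotated start, and a missing run says only that these letters are not in this window. Both kinds had medians close to each other in what follows: over the 20 tested members with a run and the 35 with a promoter and no run, the median log2 fold change was -0.66 and -0.78 between bone marrow and spleen, and -1.15 and -1.08 between tumour cells and spleen.

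The counts behind all values are few. Libraries held 54117 to 637985 counts in all (median 332074), where the labels state an average of 18000000 reads per sample, and the kit marks the strand of the RNA while the strand setting of the counting is not given in the sources used here. In every library, 61.2% to 83.8% of counts lay on genes that share at least 50 exonic bases with a coding gene on the opposite strand. The mitochondrial light-strand gene mt-Nd6 stood at medians of 16182, 11030 and 7202 CPM (counts scaled to a common library total) in spleen, bone marrow and tumour cells, and 6 heavy-strand mitochondrial genes at medians of 528, 415 and 313. Rps6kb2, a kinase gene that shares 1224 exonic bases with the leukocyte gene Ptprcap on the other strand, had a median of 7219 CPM in spleen and 15.6 in tumour cells, while Ptprcap itself had 64.3 and 3.05. Whether reads of the opposite strand entered the counts was not tested, so a member's count is given here as the count listed for its gene, not as a measured number of its own transcripts.

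Most cell type markers went with the labels, and the summed macrophage markers overlapped between the tissues. Ptprc, the gene for CD45, and all B-cell and granulocyte markers were at 0 in each of the 12 tumour libraries. The summed melanocyte markers had a median of 4720 CPM in tumour cells against 213 in spleen. In spleen and in bone marrow only 1 of these 6 markers, Pmel, had a median above 0. Granulocyte and progenitor markers summed to a median of 17632 CPM in bone marrow and 252 in spleen, and B-cell markers to 667 CPM in spleen and 150 in bone marrow. Of 6 T-cell and 6 erythroid markers, 5 each had a median of 0 in tumour cells, with summed medians of 6.09 and 6.26 CPM. The summed medians were 134 and 905 CPM in spleen, and 18.8 and 140 CPM in bone marrow, so erythroid markers were lower in bone marrow than in spleen. The 4 macrophage markers summed to a median of 430 CPM in tumour cells, 343 in bone marrow and 558 in spleen, with Adgre1 and C1qa at a median of 0 in tumour cells. Fibroblast markers had a median of 77.0 CPM in tumour cells and reached 1995 in 1 library. These marker levels differ between tissues along with the members, and their part in the members' differences was not tested.

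Ribosomal protein genes held the largest share of counts in spleen, with a wide spread. Their summed share of a library was lowest at 0.793%, at a median of 2.46% and highest at 3.41% in spleen. In bone marrow the share ran from 1.21% over a median of 1.498% to 1.76%, and in tumour cells from 0.546% over 1.22% to 1.41%. The 3 ranges overlap, and 1 spleen library lies below all bone marrow libraries. Among coding genes with no coding exons on the opposite strand, the share of the 70 members of that kind was 5.70%, 10.4% and 12.7% (lowest, median, highest) in spleen, 4.25%, 5.002% and 5.95% in bone marrow, and 3.12%, 5.09% and 5.49% in tumour cells. On that scale bone marrow and tumour cells overlapped, and all spleen libraries lay above all tumour libraries.

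**Figure D1:**
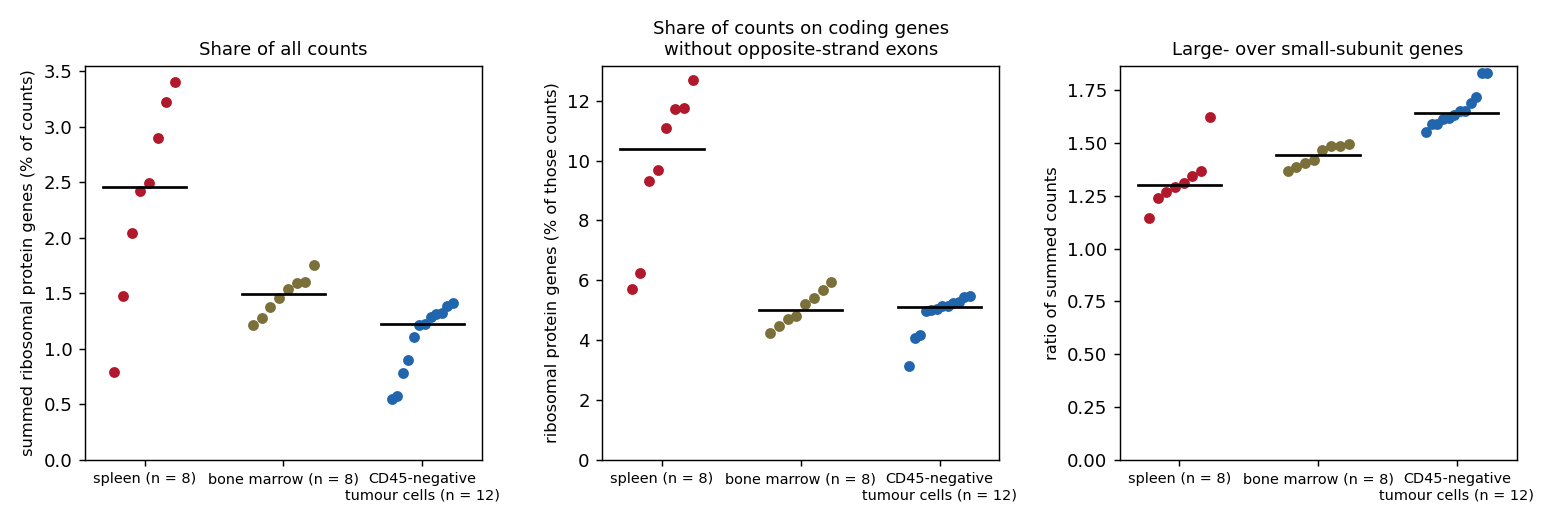
Summed counts of ribosomal protein genes by tissue, 1 point per library and a line at the median. The left panel shows the percentage of all counts, the middle panel the share of the 70 members without opposite-strand coding exons in the counts of all such coding genes, and the right panel the ratio of large- to small-subunit counts. Spleen has the highest median in the left and middle panels, and the ratio at the right rises from spleen (1.30) to bone marrow (1.44) and tumour cells (1.64).

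The balance of the subunits differed as well. Counts on large-subunit genes were 1.14 to 1.62 times those on small-subunit genes in spleen (median 1.30), 1.37 to 1.49 times in bone marrow (median 1.44), and 1.55 to 1.83 times in tumour cells (median 1.64). The bone marrow and tumour ranges do not overlap. These are ratios of counts, which grow with gene length, and describe no ratio of molecules.

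The summed level moved with the share of counts on genes with opposite-strand exons. Both are parts of the same library total, and 70 of the 83 members lie outside those genes. A higher share leaves less room for these members, so part of the relation is fixed by arithmetic. The spleen library numbered 8 had the highest such share of the spleens (79.7%) and the lowest summed member level (7932 CPM), and it was the lowest spleen library for 70 of the 75 tested members. The spleen library numbered 3 had the lowest share (63.5%) and the highest summed level (34087 CPM). Among the tumour libraries, numbers 11 and 12 had shares of 83.2% and 83.8% and were the lowest for 30 and 29 members. Tumour library 4, which held the fewest counts, was an exception, with the lowest share of all (61.2%) and a low summed share of 0.900%. Coding genes without opposite-strand exons as a whole held 9.56% of counts in spleen library 8, against a median of 20.1% in spleen. They held 9.92% and 9.94% in tumour libraries 11 and 12, against a median of 18.0% in tumour cells. How many of all tested genes were lowest in these libraries was not counted.

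**Figure D2:**
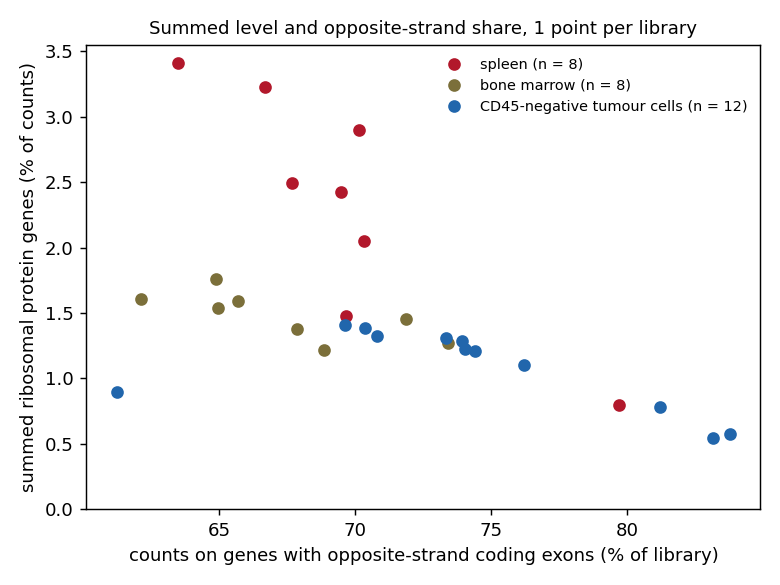
Summed share of ribosomal protein genes (y axis, % of counts) against the share of counts on genes with opposite-strand coding exons (x axis, % of the library), 1 point per library, coloured by tissue. Within each tissue, libraries further to the right tend to lie lower, apart from the tumour library at 61.2%. Both axes are parts of the same library total, so part of this fall is fixed by arithmetic.

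Levels were compared between members per kilobase of exon, as the median of all 28 libraries. The length used is that of all annotated exons of a gene merged, not that of 1 transcript, so the order depends on the annotation. It was 383 bases for Rpl36 and 6256 for Rps24, which ranked 51 despite a median of 1156 CPM in spleen. Rpl36 stood first with 671 CPM per kilobase, followed by Rps15 with 385, Rpl32 with 371, Rpl4 with 367 and Rpl23a with 337. The order differed by tissue: Rps15 lay above Rpl36 by median in spleen (807 against 766 CPM per kilobase) and in bone marrow (432 against 422), and Rpl36 above Rps15 in tumour cells (789 against 307). Rpl36, Rpl32, Rpl4 and Rpl23a belong to the large subunit, and Rps15 sits in the head of the small subunit. At the other end were the paralogues and a few members whose exons are shared. Rpl22l1, the paralogue of Rpl22, had 9.96 CPM per kilobase and Rpl7l1, the paralogue of Rpl7, had 9.62. Rpl13a had 2.72, and 621 of its 2114 exonic bases are shared with another gene on the same strand.

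8 members did not reach the test. Rpl10l and Rpl39l, retrogene-type paralogues known from testis, were at 0 counts in all 28 libraries, and Rpl3l, the paralogue of Rpl3 known from heart and skeletal muscle, had a highest value of 4.70 CPM. Rpl24 was at 0 in 5 of 8 spleen, 6 of 8 bone marrow and 10 of 12 tumour libraries, and it shares 484 of 1030 exonic bases with a same-strand gene. Rps10 had a median of 2.28 CPM in spleen and shares 475 of 2311 bases. How reads in the shared bases of these core genes were assigned is not given in the sources used here, and its part in the low values was not tested. Rpl13a, Rpl22l1 and Rps27l had median counts of 7.0, 6.0 and 4.0 in spleen, too few for the filter.

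Bone marrow was lower than spleen in 52 of the 75 tested members and higher in 0. The median log2 fold change of the members was -0.76, against 0.02 for all 5143 genes tested, and all 75 values were negative. Large drops were found in small-subunit genes such as Rps27, which carries a zinc finger, and Rps24, one of the genes mutated in Diamond-Blackfan anaemia. Fewer cells of a type and less RNA per cell cannot be told apart in these bulk samples. Calls are edgeR quasi-likelihood tests at a Benjamini-Hochberg adjusted p below 0.05 over all genes tested. Of all genes tested, 38.4% were called, 18.7% lower and 19.7% higher, so the members' 52 of 75 lower calls stand against 18.7%. A difference of at least 2-fold was called lower in 14 members, against 11.1% of all genes.

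Rps24, at chr14:24487125-24496959 (GRCm38, plus strand), lay at 383, 1156 and 1635 CPM in spleen (lowest, median, highest) and at 354, 518 and 572 in bone marrow, a log2 fold change of -1.19 ± 0.22 (SE, edgeR adjusted p = 4.48e-05). Rps27 (chr3:90212522-90213651) fell by 1.34 ± 0.27 on the log2 scale (edgeR adjusted p = 9.58e-05), from a median of 236 CPM in spleen to 90.1 in bone marrow. In both genes the spleen libraries numbered 6 and 8 lie within or below the bone marrow range, and the other spleen libraries lie above it. Rpl37a had a log2 fold change of -1.17 and Rps21 one of -1.15, and both were called.

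Members with roles beyond the ribosome or at its surface were mixed. Rpl5 and Rpl11, which with the small ribosomal RNA of the large subunit can bind and block Mdm2, fell by 0.62 ± 0.18 and 0.76 ± 0.25 (edgeR adjusted p = 0.00536 and 0.0130). Of the stalk proteins, which recruit the elongation factors, Rplp1 fell by 1.02 ± 0.24 and Rplp2 by 0.87 ± 0.25, both called, while Rplp0, the base of the stalk, had -0.41 ± 0.22 and was not called (edgeR adjusted p = 0.156). Rps6, the substrate of the S6 kinases, fell by 0.77 ± 0.24 (edgeR adjusted p = 0.0108), Rps3, at the entry of the messenger RNA channel, by 0.64 and Rpl3, near the peptidyl transferase centre, by 0.60, both called. Rpsa, the former laminin receptor, had -0.50 ± 0.27 and was not called (edgeR adjusted p = 0.144).

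The smallest differences included a paralogue. Rpl7l1, an assembly factor of the large subunit that resembles Rpl7, had medians of 35.1 and 32.7 CPM in spleen and bone marrow and a log2 fold change of -0.01 ± 0.33 on a median of 10.5 counts in spleen. Rpl18 (-0.09), Rpl35a (-0.21), Rps2 (-0.23) and Rpl31 (-0.25) were not called either. Rpl18 and Rpl31 share 373 and 420 exonic bases with opposite-strand coding genes, and the 13 members of that kind had a median of -0.62, with 7 called lower, against -0.78 in the 62 tested members without such bases, with 45 called lower. Without the spleen library of the highest opposite-strand share, 69 members were called lower in bone marrow, against 20.5% of all genes.

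The 2 further comparisons set CD45-negative tumour cells against each organ. They were added once the column names had shown that the lymph node columns cannot be assigned, and they share their groups with each other and with the first comparison, so each is given by its own values. Tumour cells also differ from the organs in that they were sorted as single live cells, while the organs were frozen whole, and this difference in handling cannot be told apart from the tissue.

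Tumour cells were lower than spleen in 68 of the 75 tested members and higher in 0. The members' median log2 fold change was -1.11, against 0.01 for all genes, and small-subunit genes lay lower than large-subunit genes, at medians of -1.35 over 30 genes and -1.05 over 45. Rpl36a, Rps27, Rpl17 and Rps24 were among the members with the largest differences. Of all genes tested 68.1% were called, 34.7% lower and 33.4% higher, so most tested genes were called in this comparison, and the 68 of 75 lower calls stand against 34.7%. A drop of at least 2-fold was called in 49 members, against 25.2% of all genes. All tumour libraries lay below all spleen libraries for 4 members, among them Rps24, Rpl5 and Rpl18, against 10.9% of all genes tested, and this was true of no member between bone marrow and spleen, against 3.29% of all genes.

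Rps24 had 127, 267 and 356 CPM in tumour cells (lowest, median, highest), all below the spleens, with a log2 fold change of -2.003 ± 0.20 (edgeR adjusted p = 7.60e-11). Rpl5 (chr5:107900502-107909005) had 71.6, 202 and 257 CPM against 347, 615 and 829 in spleen, a log2 fold change of -1.73 ± 0.17 (edgeR adjusted p = 1.86e-11). Rpl5 shares 953 exonic bases with Fam69a on the opposite strand, which had a median of 504 CPM in tumour cells and 421 in spleen.

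Rps27 had 4.93 CPM (1 count) in the lowest tumour library and 73.3 in the highest, on a median of 17 counts. Its log2 fold change against spleen was -2.15 ± 0.26 (edgeR adjusted p = 2.71e-09). Rpl36a, a large-subunit gene on the X chromosome, went from a median of 164 CPM in spleen to 33.9 in tumour cells, a log2 fold change of -2.29 ± 0.26 (edgeR adjusted p = 1.24e-09). Rpl17, whose protein lines the peptide exit tunnel, went from 413 to 109 CPM, a log2 fold change of -2.11. Among the members of known further role, 8 fell, with log2 fold changes of -1.51 for Rplp2, -1.26 for Rpl11, -1.201 for Rps6, -1.11 for Rplp1, -1.05 for Rps3 and Rpsa, -0.93 for Rplp0 and -0.55 for Rpl3.

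7 members did not pass the test between tumour cells and spleen, and Rpl36 was among them. Rpl36 (chr17:56613416-56614243) had 207, 302 and 363 CPM in tumour cells and 109, 294 and 347 in spleen, nearly the same range apart from the lowest spleen library. Its log2 fold change was 0.13 ± 0.16 (edgeR adjusted p = 0.487), the only positive value of a member in this comparison, and it turned negative with DESeq2 size factors (-0.07) and under 5 other alternatives. Rpl29 (-0.11), Rps2 (-0.18), Rpl7l1 (-0.19), Rpl32 (-0.24), Rpl7a and Rpl15 were the others. DESeq2 size factors moved the median of all genes to -0.19 in this comparison and that of the members to -1.30, with 71 members called lower. Of all genes, 39.7% were then called lower.

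**Figure D3:**
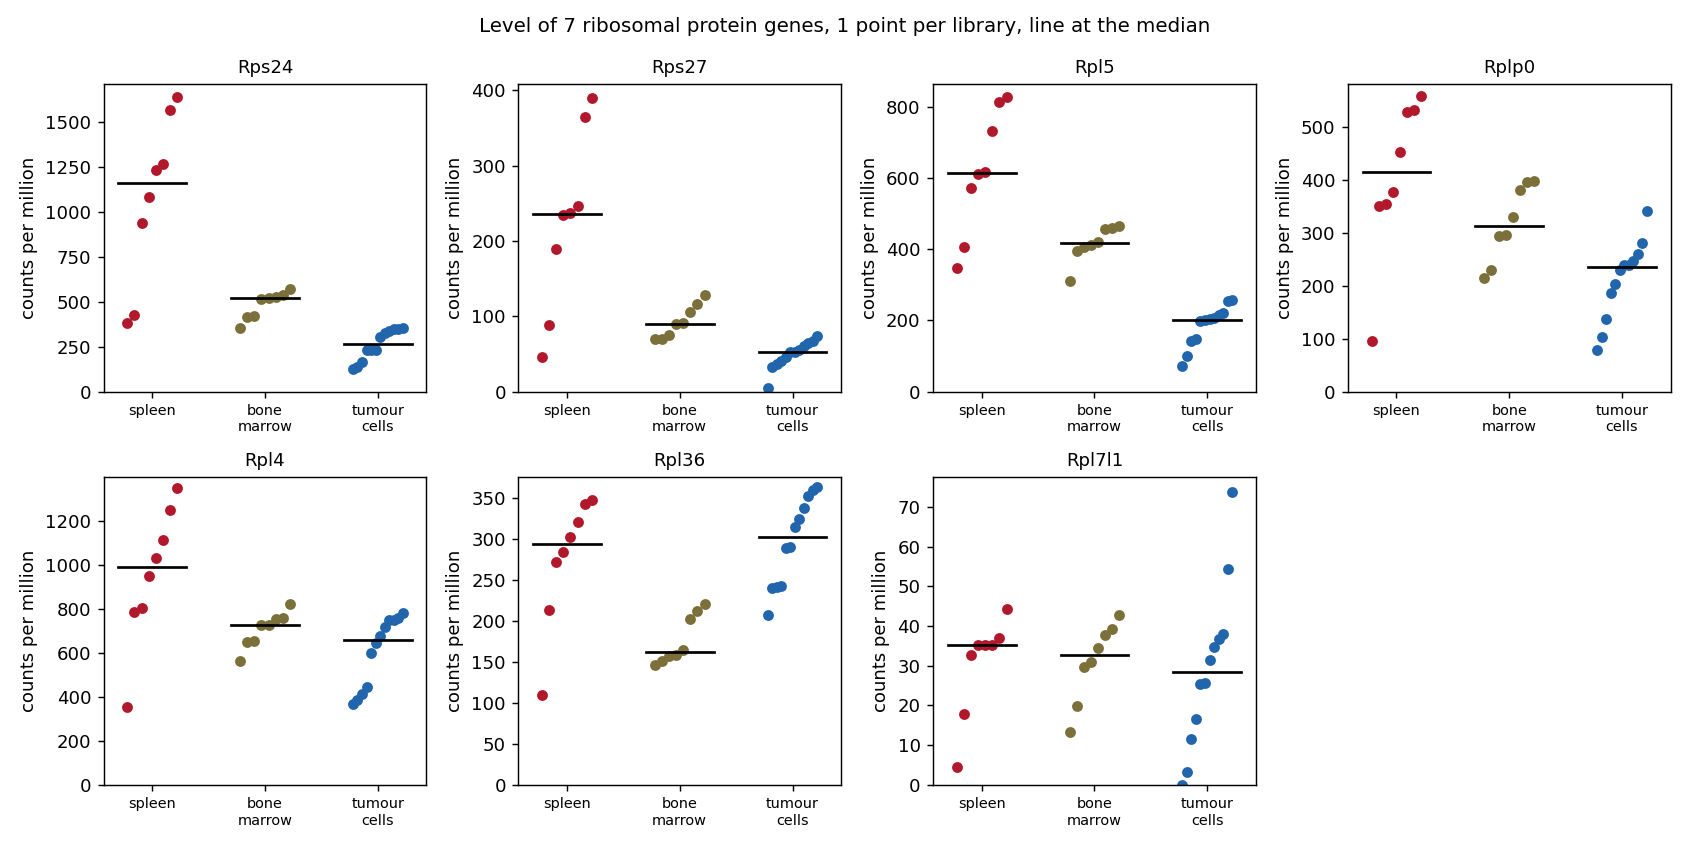
CPM of 7 ribosomal protein genes in each library of spleen (8), bone marrow (8) and CD45-negative tumour cells (12), with a line at the median. Rps24 and Rpl5 show tumour libraries wholly below spleen, Rpl36 is lowest in bone marrow, and Rpl7l1 overlaps in all 3 tissues.

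Between tumour cells and bone marrow the members split. Tumour cells were lower in 30 of 75 members, higher in 1 and not called in 44, with a median log2 fold change of -0.42 against -0.03 for all genes. Rpl35a, Rpl36a, Rps9, Rpl5 and Rpl17 had the largest drops, and Rpl36 was the member that rose. Of all genes tested 70.1% were called, 35.9% lower and 34.2% higher, so the share of members called (31 of 75) was below that of all genes, and the share called lower was near it. A drop of at least 2-fold was called in 5 members, against 26.4% of all genes. All tumour libraries lay below all bone marrow libraries in 7 members, among them Rpl35a, Rpl5, Rps9, Rpl28, Rpl18 and Rpl36a, against 20.7% of all genes.

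Rpl36 had 146, 162 and 220 CPM in bone marrow and 207, 302 and 363 in tumour cells, and the ranges overlap. Its log2 fold change was 0.82 ± 0.16 (edgeR adjusted p = 2.93e-05). Rpl35a, a large-subunit gene also mutated in Diamond-Blackfan anaemia (chr16:33056453-33060189), had 127, 165 and 214 CPM in bone marrow and 26.8, 68.7 and 89.9 in tumour cells. Its log2 fold change was -1.31 ± 0.24 (edgeR adjusted p = 1.23e-05). Rps9, an early-binding protein of the small subunit, went from a median of 270 to 130 CPM (-1.23 ± 0.23, edgeR adjusted p = 1.40e-05). Both had not been called between bone marrow and spleen, where their log2 fold changes were -0.21 and -0.33, and neither pair of values was tested against the other.

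Further large drops were seen in Rpl36a (-1.25 ± 0.27), Rpl5 (-1.11 ± 0.17) and Rpl17 (-1.02 ± 0.24). Rps24 and Rps27 fell by 0.81 each. Among the members of known further role, Rplp2 (-0.64), Rpsa (-0.55, edgeR adjusted p = 0.0476) and Rplp0 (-0.52) fell, while Rpl11 (-0.50), Rps6 (-0.44), Rps3 (-0.41), Rplp1 (-0.10) and Rpl3 (0.05) did not pass the test. Of the 8 positive values, the largest after that of Rpl36 were those of Rpl27 (0.49 ± 0.25, edgeR adjusted p = 0.0765), Rpl32 (0.40), Rpl29 (0.14) and Rpl19 (0.10), of which Rpl29 and Rpl19, like Rpl3, turned negative with DESeq2 size factors. That scaling moved the median of all genes to -0.18 in this comparison. With the opposite-strand share of each library as a covariate, the members' median was -0.03 and 13 were called, 6 higher and 7 lower, against 68.9% of all genes. Rpl17, Rps27, Rplp0, Rplp2, Rps15 and Rpl22 were among those that then lost their call, with -0.51 for Rpl17 (edgeR adjusted p = 0.0535), and the cause was not tested. Rpsa also lost its call and turned to 0.09 (edgeR adjusted p = 0.746). Without tumour library 4, of the lowest total, 40 members were called, against 70.6% of all genes. Leaving out spleen library 8 gave 42, against 71.5% of all genes.

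**Figure D4:**
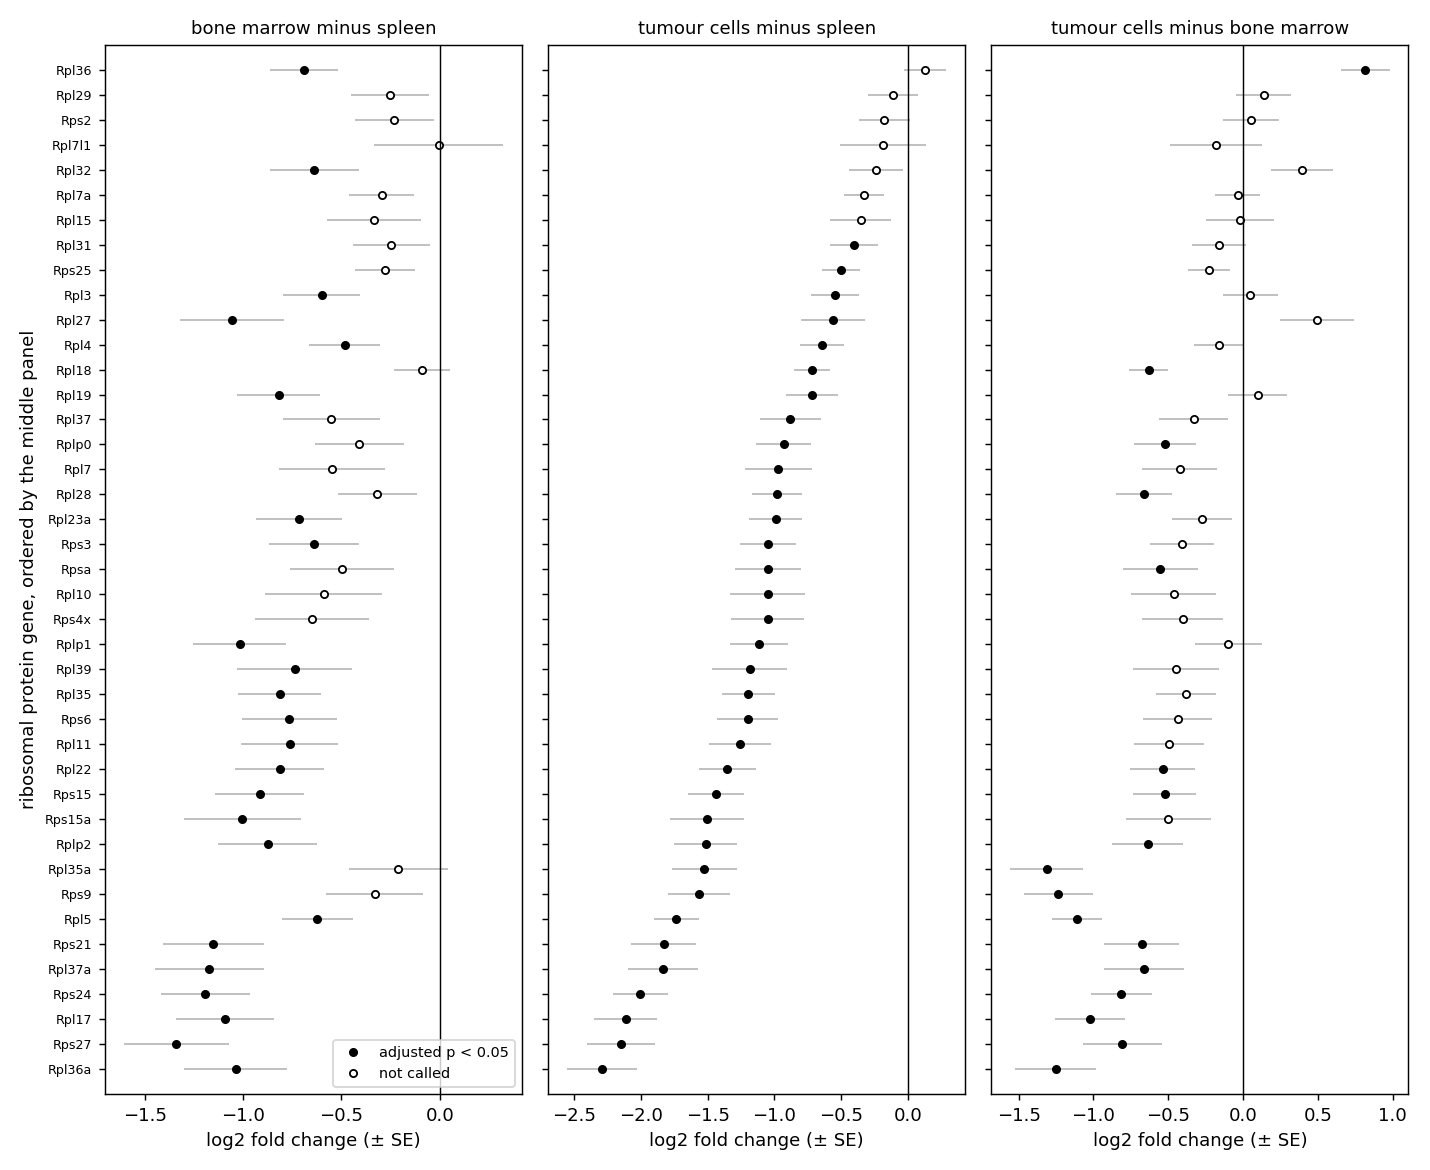
Log2 fold change of the tested ribosomal protein genes named here in the 3 tissue comparisons, with the standard error as a grey line, filled where the edgeR adjusted p was below 0.05. Genes are ordered by the middle panel. All points of the left panel lie below 0, the middle panel holds 1 point above 0 (Rpl36), and the right panel holds points on both sides of 0 with 1 filled point above it (Rpl36).

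Paralogue pairs could be compared where both members had counts. Between tumour cells and spleen, Rpl7 fell by 0.97 ± 0.25 (edgeR adjusted p = 0.000834), and Rpl7l1 had -0.19 ± 0.32. Rpl22 had medians of 137, 93.4 and 55.6 CPM in spleen, bone marrow and tumour cells, and Rpl22l1 had 21.9, 23.1 and 17.2. Rps27 had 236, 90.1 and 52.1 CPM, and Rps27l, a p53 target that resembles it, had 13.4, 23.4 and 18.8. In each pair the main gene was lowest in tumour cells. Rpl22l1 and Rps27l were not tested, and no difference within a pair was. Rpl39 (113, 66.1 and 41.7 CPM), Rpl10 (164, 102 and 87.4 CPM) and Rps4x (279, 178 and 146 CPM), 3 genes of the X chromosome, were also highest in spleen and lowest in tumour cells by their medians.

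Members with coding exons on the opposite strand were set beside their partners. There were 13 such members in 15 pairs with at least 50 shared bases, and in 3 pairs the partner's median was the higher one in every tissue. Rpl23a had a median of 490 CPM in spleen, and Tlcd1, which shares 506 bases with it, had 9447. Rpl35 (285 CPM) faced Wdr38 (1182 CPM, 821 shared bases), and Rpl15 (37.9 CPM) faced Nkiras1 (1073 CPM, 105 shared bases). In these 3 pairs the partner exceeded the member in each of the 28 libraries. Rps25, at 613 CPM in spleen, exceeded both of its partners, Trappc4 and Ccdc84, in all 28 libraries.

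Other parts of the translation machinery gave mixed values. Fau, which encodes a small-subunit protein fused to a ubiquitin-like domain, went from a median of 575 CPM in spleen to 327 in bone marrow and 137 in tumour cells, with log2 fold changes of -0.75 and -2.11 against spleen, both called. Rack1, the scaffold of the small subunit, fell by 0.63 in tumour cells against spleen and had -0.59 in bone marrow, which was not called (edgeR adjusted p = 0.0506). Of 30 translation factors tested, bone marrow was lower than spleen in 5 and 25 were not called (median -0.15), where 18.7% of all genes were lower. Between tumour cells and spleen 9 were higher and 8 lower (median 0.10), beside 33.4% and 34.7% of all genes, among them Eif2s2 with 1.17 and Eif4g1 with 1.08, initiation factors that were higher. Tpt1, also a transcript with a pyrimidine tract, fell by 1.31, and Eef1g, an elongation factor subunit, by 0.60.

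Of 18 tested genes of ribosome biogenesis, tumour cells were higher than spleen in 10 and lower in 2 (median 0.51), where 33.4% of all genes were higher and 34.7% lower. They were higher than bone marrow in 13 and lower in 2 (median 0.63), where 34.2% of all genes were higher and 35.9% lower. Tsr1, which helps mature the small subunit, was higher by 1.55 ± 0.17 against bone marrow (edgeR adjusted p = 1.45e-10). Npm1 and Ncl, abundant nucleolar proteins, were higher by 0.73 and 0.63 in that comparison, while Ubtf, the activator of ribosomal RNA transcription, fell by 0.57. Between bone marrow and spleen, 2 of the 18 were lower and 16 were not called (median -0.22), beside 18.7% lower of all genes. Larp1 was higher in tumour cells than in spleen by 1.35 ± 0.20 and Myc was not called in any comparison. Of 78 mitochondrial ribosomal protein genes only 12 passed the filter, with 5 higher and 3 lower in tumour cells against spleen (median 0.18), beside 33.4% and 34.7% of all genes.

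QPCTL genotype could be read only from the authors' deposited table of CD45-negative tumour cells, which does not state which genotype was subtracted. The authors' deposited table held 78 of the 83 members, 74 with a negative and 4 with a positive log2 fold change. The median of the members in the authors' deposited table was -0.41, against -0.14 for all 11340 genes. The table's genes without opposite-strand coding exons had a median of -0.31 and those with such exons 0.25, in the authors' deposited table. The 65 members without such exons had a median of -0.42 and the 13 with them -0.30 in the authors' deposited table. The 65 members thus lay on the negative side with the genes that lack opposite-strand exons, and somewhat below them. The 13 members with such exons did not lie with the genes of their kind. Of the 13, 12 were negative (92.3%), against 27.9% of all genes with such exons in the authors' deposited table.

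By the authors' deposited table, 1 member had an adjusted p below 0.05, against 0.644% of all genes (0.317% with a negative value). That member, Rps3, had a log2 fold change of -0.78 there (adjusted p = 0.0401, authors' deposited table). The next by p in the authors' deposited table were Rps15a (-0.75, adjusted p = 0.0957), Rpl37 (-0.71, 0.0995), Rps21 (-0.82, 0.104) and Rpl39 (-0.89, 0.109). At an unadjusted p below 0.05 the authors' deposited table had 32 members (41%), against 16.8% of all genes, and 9.39% of all genes with a negative value. The most negative member was Rpl22l1 (-1.44, adjusted p = 0.124, authors' deposited table). Among the members within 0.1 of 0 in the authors' deposited table were Rpl36 (0.03), Rpl18 (-0.01), Rpl29 (-0.05) and Rps2 (-0.09).

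**Figure D5:**
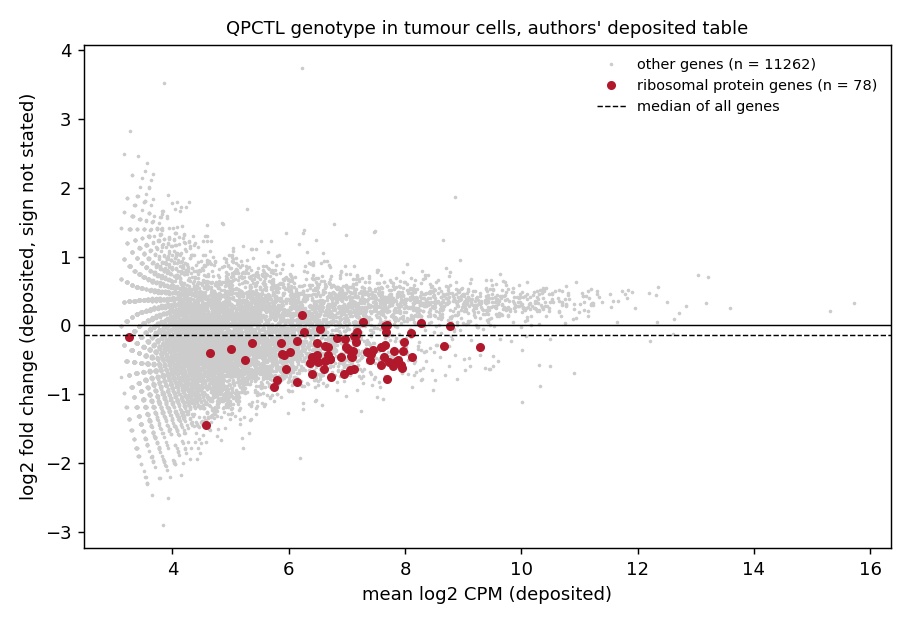
Log2 fold change between QPCTL genotypes (y axis, sign not stated) against mean log2 CPM (x axis) in the authors' deposited table, with the 78 ribosomal protein genes in red among the other genes in grey and a dashed line at the median of all genes. Most red points lie below the dashed line at -0.14.

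In the authors' deposited table, 31 of 32 translation factors were negative (median -0.41), as were 53 of 73 mitochondrial ribosomal protein genes (median -0.41) and 28 of 34 ribosome biogenesis genes (median -0.32). Negative values made up 58.5% of the whole of the authors' deposited table and 71.6% of those without opposite-strand coding exons, beside 94.9% of the members, 96.9% of the translation factors, 82.4% of the biogenesis genes and 72.6% of the mitochondrial genes. An adjusted p below 0.05 was given to 0 genes of these 3 lists by the authors' deposited table, against 0.644% of all its genes. An unadjusted p below 0.05 was given by the authors' deposited table to 12 translation factors (37.5%), 11 mitochondrial (15.1%) and 6 biogenesis genes (17.6%). Against the 16.8% of all genes in the authors' deposited table, the last 2 lists were near that share. The libraries behind the authors' fit are not stated in it.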

How the data were processed

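Total RNA from frozen organs and sorted cells was extracted with the RNeasy Mini Kit and sequenced as paired 50 bp reads from TruSeq Stranded mRNA libraries, per the labels' protocols. HISAT2, edgeR, GRCm38 and mm10 are named without roles in the submitters' processing notes. Raw gene counts were deposited by the authors in 1 table of the whole series, with the counting tool and strand setting not given in the sources used here. The authors' table for tumour cells holds, per the file headers, log2 fold changes and mean log2 CPM, an F score, p-values and the FDR of each gene. 28 count columns were assigned to spleen, bone marrow or tumour cells by name, and 20 lymph node columns, whose names match 2 groups, were not used. 3 comparisons with lymph node are therefore not analysed here. Tumour cells against each organ were added after the column names were seen.

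From the counts, 1 edgeR 4.0.16 quasi-likelihood fit (R 4.3.3) over the 3 groups used TMM factors, the filterByExpr filter and Benjamini-Hochberg adjustment over 5143 genes. The standard error is the log2 fold change divided by the root of F. CPM values use the total count. The fit recovered changed genes in a test on simulated data, with changes only in well-counted genes and the same spread for all genes. No library in it had many genes shifted together, so it does not cover the library differences described above. Exon overlaps came from GENCODE M21 on GRCm38 (99.42% of genes with identical start and end) and promoters from RefSeq. Alternatives were DESeq2 1.42.0, other scalings and filters, and left-out libraries. At a median of 332074 counts per library, members of few counts have wide errors. Named members are the core and paralogue genes, the 5 highest per kilobase, the 5 with the largest change either way per comparison and the 5 of smallest p in the authors' table. Rpl7a, Rpl13a, Rpl15, Rpl24, Rpl28, Rpl35, Rps10 and Rps25 lie outside this rule and were named after their values were seen. Results of some members are not reported here, though they stay in the counts and medians. The members and lists were chosen with earlier results of these data known.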

Additional observations from a re-analysis of the deposited data

Results flagged for a closer look

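Of 80 groups of 8 libraries, 8 held a library far from the others, where chance gives about 1 in 20 for independent groups. These groups are genes and measures read in the same libraries, so they are not independent. In spleen, 1 library held 626316 counts, with 405998 in the next, and another had 79.7% of counts on genes with opposite-strand coding exons, with 70.3% in the next. Rpl29 (41.1 CPM, next 85.1), Rplp0 (95.8 CPM, next 350.0) and Rps2 (36.5 CPM, next 127.6) each had 1 spleen library far below the others. It was spleen library 8 each time, which also had the share of 79.7%. In bone marrow, 1 library was low for Rpl5 (310.9 CPM, next 394.6). The highest bone marrow value lay apart for Rplp1 (217.9 CPM, next 153.1) and for Rps15 (377.8 CPM, next 281.6).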

How the results depend on the processing

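Members called changed by more than 1.5 times as follows. Between bone marrow and spleen, 14 were called at 2-fold or more and 2 of the 4 members left by a minimum of 100 counts, against 52. Of all genes, these settings called 23.2% and 62.4%, against 38.4%. Between tumour cells and spleen, 2 of these 4 members were called, against 68, beside 80.7% of all genes, against 68.1%. Between tumour cells and bone marrow, 5 were called at 2-fold or more, 1 of 4 at 100 counts, 47 by DESeq2's Wald test, 50 with only the 2 groups fitted and 13 with the opposite-strand share as covariate, against 31. Of all genes, 48.4%, 81.6%, 71.2%, 73.3% and 68.9% were called in that order, against 70.1%. Over members without opposite-strand coding exons, the median summed level was 19658, 11613 and 9311 CPM in spleen, bone marrow and tumour cells. Over all members it was 24598, 14978 and 12194 CPM. The sum over fewer genes is lower by construction, and the order of the tissues stayed the same. In the authors' deposited table, 0 members passed an adjusted p of 0.01 and 3 passed 0.1 (at an unadjusted p below 0.05, 32 did).

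Directions reversed for values not called in the report's fit, and for 1 called value, Rpsa with the covariate. Rpl36 in tumour cells against spleen was -0.069 with DESeq2 size factors, -0.072 by the Wald test, -0.029 without a filter, -0.15 with 2 groups, -0.0010 without tumour library 4 and -0.11 without spleen library 8. Against bone marrow, Rpl19 was -0.056, -0.053, -0.038 and -0.0097 under the first 4 of these, and Rpl29 -0.019 and -0.0042 under the first 2. Rpl3 was -0.10, -0.10, -0.084, -0.061, -0.047 and -0.0026 under the 6, and -0.0066 with total counts. Rpl4 was 0.12 at 100 counts. Rpl7l1 between bone marrow and spleen was 0.031 with total counts. With the covariate, tumour cells against bone marrow gave Rpl4 0.083, Rpl10 0.22, Rpl23a 0.18, Rpl39 0.27, Rpl7 0.17, Rpl7l1 0.47, Rplp1 0.33, Rps3 0.077, Rps4x 0.28, Rps6 0.12 and Rpsa 0.093, and against spleen Rpl32 0.039, Rpl7l1 0.30 and Rps2 0.057. Causes were not tested, apart from fewer genes at 100 counts. Of the other values of named genes under alternatives, 656 kept direction and call, 62 gained a call and 19 lost it. No paired analysis was possible because the count columns carry no number that matches a sample title.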
